A study of Mus musculus with 6 samples.

Results

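The CCN family consists of 6 secreted matricellular proteins, Ccn1 to Ccn6, and all 6 genes were measured here, out of 22180 genes with a probe set that names a single gene. They were chosen by name, under their current or older symbols (Cyr61, Ctgf, Nov, Wisp1, Wisp2 and Wisp3), and each gene is represented by its probe set with the highest mean over all 6 arrays. The cells were mouse embryonic fibroblasts, primary connective tissue cells grown from embryos, collected at confluence. They came from Pax7-/- embryos, which lack functional Pax7 (3 arrays), and from Pax7+/+ wild type embryos (3 arrays). The strain of both genotypes was an F1 of C57Bl6N x 129Sv. The sources used here do not give the allele, the age and sex of the embryos or the number of embryos behind each array. The p-values therefore measure the spread of these arrays, in the main fit that of knockout minus wild type within replicate numbers. SEs, intervals and p-values from limma also draw on a variance shared over all genes. They are therefore not the spread of a gene's own pairs alone.

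CCN proteins are built from modules that resemble the growth factor binding part of IGF binding proteins, a von Willebrand factor type C repeat, a thrombospondin repeat and, in most members, a C-terminal cystine knot. They sit in the matrix around a cell, bind integrins, heparan sulfate proteoglycans and growth factors, and alter adhesion, migration and the response to TGF-beta, BMP and Wnt signals. In fibroblasts, Ccn1 and Ccn2 are early genes of the response to serum and to mechanical load, switched on by the Hippo pathway effectors YAP and TAZ with TEAD factors and by SRF. Pax7 is a transcription factor with a paired domain and a homeodomain, best known from muscle satellite cells and from the dorsal neural tube and neural crest.

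The Ccn1 promoter is shown because Ccn1 is a textbook target of TEAD factors and its signal was far above background on every array. RefSeq promoter windows, which run 250 bases before to 50 after the start of the gene, were matched for 2 of the 6 CCN genes, Ccn1 and Ccn6. The Ccn1 window is chr3:145649936-145650235 of GRCm38.p6, minus strand. Capitals mark matches to GGAATG (TEAD, found here as its reverse complement), TGACGT (part of a cyclic AMP response element, also as its reverse complement) and TATAAA (known as the TATA box).
Ccn1 promoter: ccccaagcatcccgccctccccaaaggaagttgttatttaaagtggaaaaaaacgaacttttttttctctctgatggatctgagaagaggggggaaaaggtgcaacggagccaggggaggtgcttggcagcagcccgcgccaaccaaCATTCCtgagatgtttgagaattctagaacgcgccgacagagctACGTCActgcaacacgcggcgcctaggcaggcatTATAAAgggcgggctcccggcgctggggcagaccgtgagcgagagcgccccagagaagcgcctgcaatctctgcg
Searched on both strands, these motifs occur in 14.7%, 7.51% and 13.6% of the 32851 promoter windows of the same table, and the 3 matches in Ccn1 do not overlap. The Ccn1 and Ccn6 windows held no match to TGANTCA (AP-1), CAGACA (SMAD) or GTCACGC (a core of paired domain sites), which occur in 7.81%, 21.0% and 2.09% of windows. The Ccn6 window held no match to any of the 6 motifs.

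Values are log2 signals per probe set, and differences are knockout minus wild type. The background level of an array is the 95th percentile of its olfactory and vomeronasal receptor genes, which fibroblasts are not known to use. It was 5.43, 5.34 and 4.63 in knockout replicates 1, 2 and 3 and 5.44, 5.33 and 4.65 in wild type replicates 1, 2 and 3. The replicate 3 arrays of both genotypes stood apart: they correlated at 0.992 with each other and at 0.814 to 0.844 with the other 4 arrays, which correlated at 0.988 to 0.990 among themselves. Knockout was set against wild type within replicate numbers, as the rule that chose the CCN genes states, with limma and the replicate number as a block. The divide alone would call for a block of 2 batches, replicate 3 against the others, which was fitted as an alternative. The samples carry ESCs as their cell type, against the titles, which name fibroblasts. All 8 fibroblast markers were above background on every array, among them the collagen I chains Col1a1 and Col1a2. Of 8 pluripotency markers only Pou5f1 was above background in a genotype's mean, and it was so on all 6 arrays. By the same rule, 7 of 8 cartilage, 7 of 8 pericyte and smooth muscle and 6 of 7 neural markers were above background. For endothelium and bone it was 2 of 8 and 1 of 6. Passing this level therefore does not by itself settle the cell type. Pax7 itself had log2 signals of 6.17, 5.95 and 5.05 in the knockout, against 6.14, 5.65 and 4.88 in wild type. These differed by 0.16 (SE 0.10, limma adjusted p = 0.804), so the signal did not separate the genotypes. The sources used here do not say whether the probe set lies in the disrupted part of the gene, and a probe outside that part checks nothing. The genotypes are taken from the labels.

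Of the 6 CCN genes, Ccn3 fell in the knockout and no other member passed the threshold, an adjusted p under 0.05 over all genes. Ccn3 was 1.92-fold lower in knockout than in wild type fibroblasts and was lower within each of the 3 replicate pairs. Ccn5 also had a lower signal in all 3 pairs, by a smaller amount. Ccn1, Ccn2 and Ccn4 had mean differences of -0.05, 0.11 and -0.15 on the log2 scale, and Ccn6 was not above background. Among all genes 0.0676% of genes were called lower and 0.00902% higher (15 and 2 genes).

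**Figure D1:**
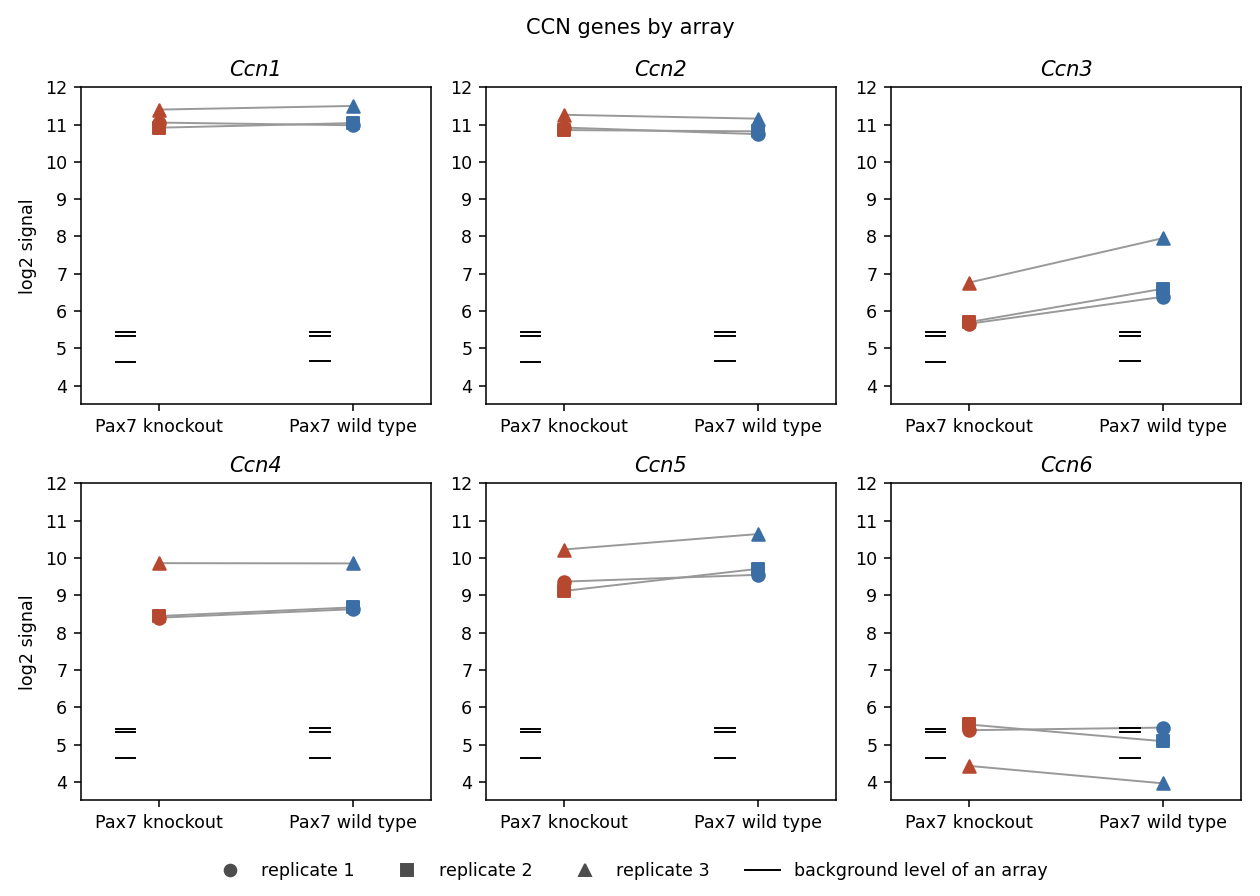
Log2 signal of each CCN gene in the 3 Pax7 knockout and 3 Pax7 wild type arrays. Each point is 1 array, grey lines join arrays of equal replicate number, and short black bars show the background level of each array. Ccn3 is lower in the knockout along all 3 lines, while the replicate 3 arrays are the highest of their genotype for Ccn1 to Ccn5 and the lowest for Ccn6.

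Ccn3, first named Nov for its overexpression in nephroblastoma, encodes a CCN protein that binds integrins and Notch1 and has been described as opposing Ccn2 in several cell types. Its log2 signal was 5.66, 5.70 and 6.76 in knockout replicates 1, 2 and 3, against 6.38, 6.60 and 7.96 in wild type replicates 1, 2 and 3. The genotypes overlapped, since knockout replicate 3 lay above wild type replicates 1 and 2, but in each pair the knockout array was the lower. In order of level, the arrays ran from knockout replicates 1 and 2, which differed by less than 0.05, through wild type replicates 1 and 2 and knockout replicate 3 to wild type replicate 3.

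The pair differences of Ccn3 were -0.73, -0.90 and -1.19, with a mean of -0.94 (SE 0.11, 95% interval -1.19 to -0.69, n = 3 pairs). This passed over all genes (limma with the replicate block, adjusted p = 0.0275) and ranked 7 of 22180 by p and 14 of 22180 among the lowest differences. Without the block the same difference had an SE of 0.53 and an adjusted p of 1.00 in limma. Without replicates 2 and 3 in turn, Ccn3 stood at -0.96 and -0.81 and missed the threshold (limma adjusted p = 0.117 and 0.0747), and without replicate 1 it stood at -1.05 (limma adjusted p = 0.000395). An exact sign-flip test on the 3 pairs alone gave a two-sided p of 0.25, the smallest that 3 pairs allow. Any 3 pairs that share a sign give this value. An exact permutation test without the pairs gave a two-sided p of 0.3, where 0.1 is the smallest possible.

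All 3 knockout arrays were above background for Ccn3, but by only 0.23 and 0.36 on the log2 scale in replicates 1 and 2, against 2.13 in replicate 3. In these bulk samples, fewer cells that make a transcript and less transcript per cell cannot be told apart.

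Ccn5, also called Wisp2, is the member that lacks the C-terminal module and is known as a growth inhibitor of smooth muscle cells. Its log2 signal was 9.37, 9.12 and 10.23 in knockout replicates 1, 2 and 3, against 9.55, 9.71 and 10.64 in wild type replicates 1, 2 and 3. The knockout array was the lower of each pair, and the genotypes overlapped because of knockout replicate 3. The pair differences were -0.18, -0.59 and -0.41, with a mean of -0.40 (SE 0.10, 95% interval -0.63 to -0.16, n = 3 pairs). Over all genes this missed the threshold (limma adjusted p = 0.432, unadjusted p = 0.00401). The interval is not adjusted for the number of genes.

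Ccn4, or Wisp1, is a Wnt-induced member expressed in bone-forming and mesenchymal cells. Its log2 signal was 8.40, 8.44 and 9.86 in knockout replicates 1, 2 and 3, against 8.63, 8.68 and 9.86 in wild type replicates 1, 2 and 3. Replicates 1 and 2 were lower in the knockout by 0.23 each, while the replicate 3 arrays were level (0.01). The mean difference was -0.15 (SE 0.10, 95% interval -0.37 to 0.06, limma adjusted p = 0.819), so a fall of up to 0.37 lay within the interval.

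Ccn1 and Ccn2, the serum- and load-responsive members, differed little between the genotypes. Ccn1, or Cyr61, promotes adhesion, angiogenesis and, in healing wounds, fibroblast senescence. It had log2 signals of 11.05, 10.92 and 11.40 in the knockout, against 10.98, 11.04 and 11.50 in wild type. The pair differences of 0.07, -0.12 and -0.10 had no common direction, with a mean of -0.05 (SE 0.09, 95% interval -0.26 to 0.16, limma adjusted p = 0.958).

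Ccn2, or connective tissue growth factor, is induced by TGF-beta and is a marker of fibrosis. It had log2 signals of 10.92, 10.85 and 11.26 in the knockout, against 10.74, 10.82 and 11.16 in wild type. Each pair was slightly higher in the knockout, by 0.18, 0.03 and 0.10, and the mean of 0.11 did not pass (SE 0.09, 95% interval -0.10 to 0.31, limma adjusted p = 0.881). A further probe set that names Ccn2 alone was far dimmer, at 5.55 to 5.64 in the knockout against 5.34 to 5.90 in wild type, and was above background on 5 of 6 arrays. Its pair differences were 0.28, -0.35 and 0.20, which have no common direction.

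Ccn6, or Wisp3, is known from human skeletal disease, where its loss causes a progressive cartilage disorder. Its log2 signal was 5.38, 5.54 and 4.43 in knockout replicates 1, 2 and 3, against 5.45, 5.09 and 3.96 in wild type replicates 1, 2 and 3. It was above the background level on 1 of 3 knockout and 1 of 3 wild type arrays and below it in the mean of both genotypes, so no size of a difference is given.

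**Figure D2:**
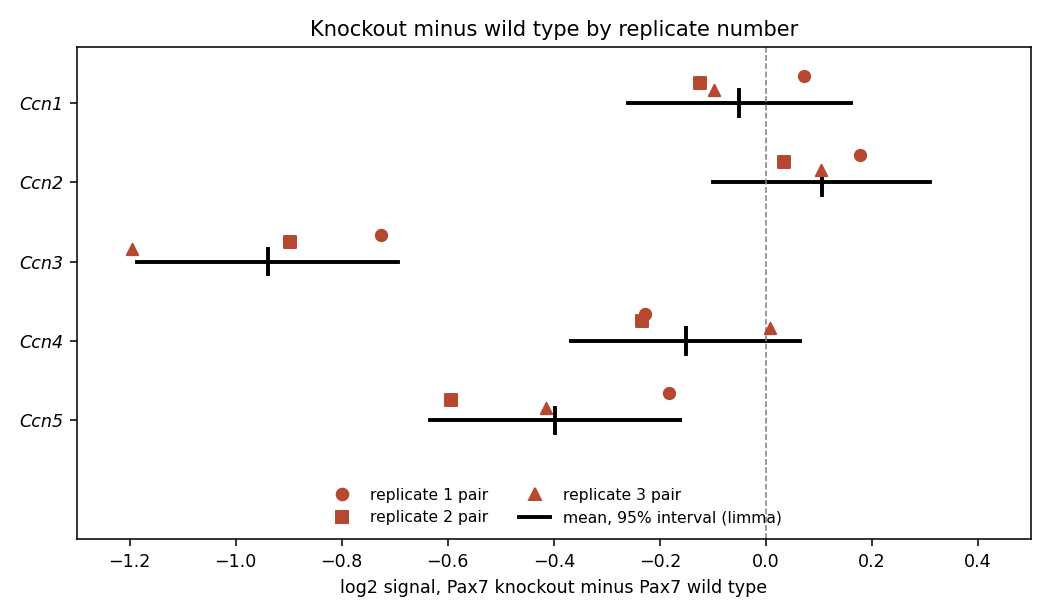
Difference in log2 signal, Pax7 knockout minus Pax7 wild type, for the 5 CCN genes above background. Points are the 3 replicate pairs, and black lines show the mean and its 95% interval from limma with the replicate block. The interval of Ccn3 runs from -1.19 to -0.69 and that of Ccn5 from -0.63 to -0.16, while those of Ccn1, Ccn2 and Ccn4 cover 0.

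Read as a family, the CCN genes did not move one way. The median difference of all 6, with Ccn6 included, was -0.10, beside a median of -0.0018 over all 22180 genes. Among the 5 members above background the middle value was that of Ccn4, -0.15. Ccn3 and Ccn5 were lower in all 3 pairs, a pattern found in 13.8% of all genes, and Ccn2 was higher in all 3, found in another 13.8%. For none of the 6 did the genotypes separate without overlap, which 1.41% of all genes did. Of the 5 members above background, 2 had an unadjusted limma p under 0.05 (Ccn3 and Ccn5), beside 9.28% of the 12360 genes above background. Whether the difference of Ccn3 departs from those of its relatives was not tested.

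The divide between replicate 3 and the other arrays was larger than the mean genotype difference for each of the 5 CCN genes above background. Ccn1 to Ccn5 were higher on replicate 3 than on the mean of replicates 1 and 2 in both genotypes. Over all genes, the replicate 3 arrays had a wider interquartile range (2.98 and 3.02, against 1.61 to 1.69 on the others). Their median was lower (5.01 and 5.02, against 5.29 to 5.31). The excess therefore cannot be read as particular to the CCN genes, and the share of all genes with such an excess was not counted. The excess of Ccn1 was 0.42 in the knockout and 0.49 in wild type, and that of Ccn2 was 0.38 in both. For Ccn4 it was 1.44 in the knockout and 1.20 in wild type, and for Ccn5 0.99 and 1.01. The excess of Ccn3 was 1.08 in the knockout and 1.46 in wild type. The signal of Ccn6, not above background, was lowest on replicate 3 in both genotypes, as were Pax7 and the background level. What sets replicate 3 apart is not stated in the labels and was not tested. Without replicate 3 of both genotypes, Ccn1, Ccn2, Ccn4 and Ccn5 stood at -0.03, 0.11, -0.23 and -0.39.

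The receptors and binding partners reported for CCN proteins were measured for 15 of 16 listed genes, and 14 were above background. None passed the threshold in either direction, and their median difference was 0.04. Among the integrin chains, Itgav, Itgb5, Itga5 and Itgb1, which form the main fibroblast receptors for Ccn1 and Ccn2, stood at 0.10, 0.11, 0.11 and 0.13. Itga6, which pairs with Itgb1 as a receptor of Ccn1 on fibroblasts, had log2 signals of 7.30, 7.12 and 8.42 in the knockout, against 6.69, 7.02 and 8.07 in wild type. It was the higher array of each pair in the knockout, with a mean of 0.35 (SE 0.11, limma adjusted p = 0.573). Syndecan-4, Sdc4, a heparan sulfate co-receptor, had 8.13, 8.29 and 9.45 in the knockout, against 8.53, 8.68 and 9.79 in wild type. It was the lower array of each pair in the knockout by a similar amount, with a mean of -0.38 (SE 0.09, limma adjusted p = 0.347). Notch1, a partner of Ccn3, stood at 0.04, and the receptors Lrp1 and Lrp6 at 0.10 and -0.07. Itgam was not above background.

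The Hippo pathway sets the activity of YAP and TAZ, which drive Ccn1 and Ccn2. Of 18 measured components, all above background, none passed the threshold, and their median difference was -0.01 with a range of -0.22 to 0.20. The effectors Yap1 and Wwtr1 (TAZ) stood at -0.08 and -0.10 and their DNA-binding partner Tead1 at -0.21 (SE 0.12). By the smallest p, the kinase Lats2, itself a YAP target, stood at -0.22 (SE 0.09, limma adjusted p = 0.727) and the scaffold Amot at 0.20 (SE 0.10, limma adjusted p = 0.768).

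Of 19 measured YAP and TEAD targets outside the CCN family, 1 passed as lower and 0 as higher, and the median was 0.04. At an unadjusted limma p under 0.05, 2 were lower and 3 higher. In either direction this held for 6.73% of all genes and 9.28% of the genes above background, as 18 of the 19 were. The 1 that fell was Igfbp3, which binds IGFs outside the cell and had been seen to fall before the list was made. Its log2 signal was 6.88, 6.75 and 7.87 in the knockout, against 7.46, 7.53 and 8.69 in wild type, so the knockout array was the lower of each pair (mean -0.73, SE 0.10, limma adjusted p = 0.0400). It lost its call without the replicate block (limma adjusted p = 1.00). The members next by p, picked after their values were seen, pointed the other way. Ankrd1, a muscle ankyrin repeat protein, had 8.63, 8.67 and 9.87 in the knockout, against 8.21, 8.21 and 9.35 in wild type. Each pair was higher in the knockout, with a mean of 0.46 (SE 0.09) that did not pass (limma adjusted p = 0.168). Crim1, a membrane protein with von Willebrand factor type C repeats, stood at 0.45 (SE 0.11, limma adjusted p = 0.348).

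MRTF and SRF form the other arm of load-dependent Ccn1 and Ccn2 expression. The list of these factors with their targets was all above background, and 0 of 18 passed, with a median of -0.02. The factors Srf, Mrtfa and Mrtfb stood at -0.07, -0.14 and -0.10. The early gene Fos stood at 0.24 (SE 0.10, limma adjusted p = 0.710) and the smooth muscle actin Actg2 at -0.15 (SE 0.10, limma adjusted p = 0.828). In the TGF-beta pathway with its early targets, 0 of 16 passed and the median was 0.09. The secreted matrix protein Tgfbi had the smallest p, at -0.49 (SE 0.10, limma adjusted p = 0.214), and Pmepa1, a feedback inhibitor, stood at 0.24 (SE 0.09, limma adjusted p = 0.689). Among 13 Notch ligands, receptors and targets, 0 passed and the median was -0.01. Hey1, a repressor switched on by Notch, stood at 0.34 (SE 0.09, limma adjusted p = 0.432), higher in all 3 pairs, and Notch2 at -0.17 (SE 0.10, limma adjusted p = 0.809).

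**Figure D3:**
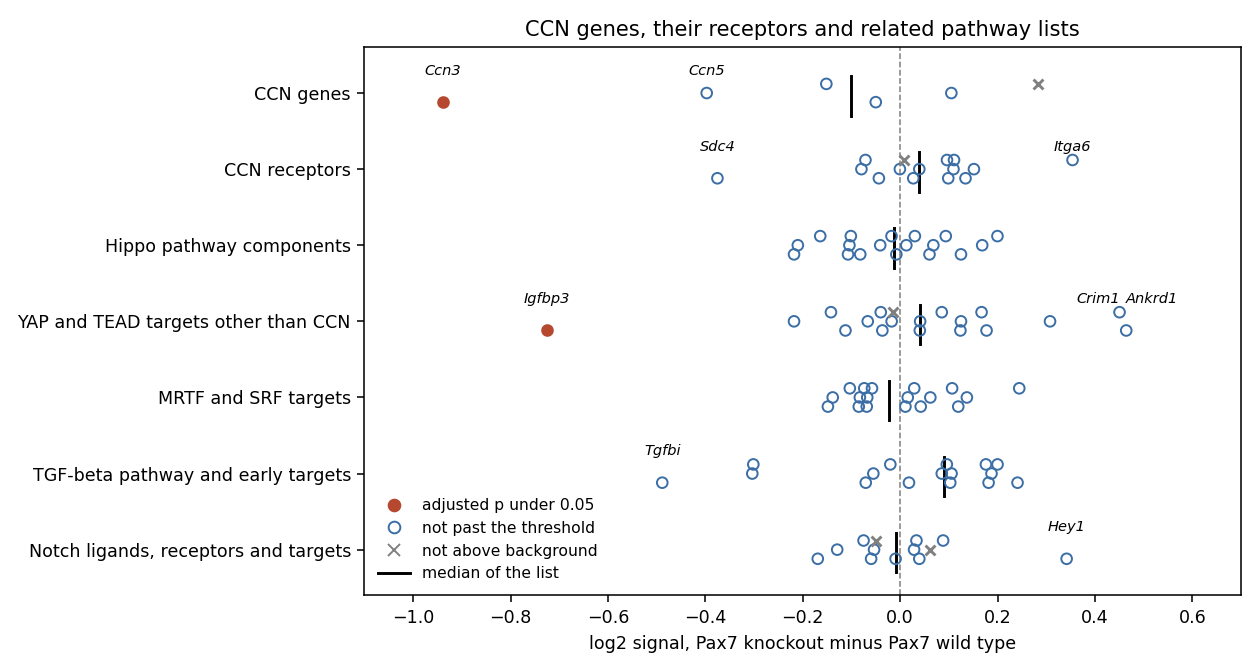
Difference in log2 signal, Pax7 knockout minus Pax7 wild type, for the CCN genes and the 6 lists of receptors and pathway genes. Each symbol is 1 gene, filled where limma's adjusted p was under 0.05 and a cross where the gene was not above background, and the black bar is the median of the list. Ccn3 at -0.94 and Igfbp3 at -0.73 are the filled points, and the list medians lie between -0.10 and 0.09.

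Patterns over the arrays were compared by the Euclidean distance between log2 signals over the 6 arrays, each gene centred on its own mean, among genes above background. The measure takes in the replicate 3 divide, which many genes share, and the genotype difference itself, so neighbours have differences like the member's by construction, and their values are a description. The genes nearest to Ccn3 were Igfbp2 (distance 0.36), the water channel Aqp1 (0.37) and Igfbp3 (0.38). Igfbp2, like Igfbp3 an IGF binding protein, had pair differences of -0.89, -1.07 and -1.05, and Aqp1 and Igfbp3 had mean differences of -0.79 and -0.73. Nearest to Ccn5 were the chemokine Ccl2 (distance 0.09), the mesenchymal homeobox factor Prrx1 (0.15) and the actin-binding Svil (0.16). These stood at -0.43, -0.42 and -0.36.

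The neighbours of Ccn1 were Lrrc49, Fyco1 and Grn (distances 0.05, 0.08 and 0.08), at -0.05, -0.06 and -0.04. Ccn2 lay nearest to Malat1, Cyth2 and Trmt44 (distances 0.07, 0.08 and 0.08), at 0.11, 0.13 and 0.13. For Ccn4 they were Rad54l, Smim7 and Sec16a (distances 0.09, 0.10 and 0.10), at -0.14, -0.14 and -0.13. By this distance Ccn3 had no neighbour as close as those of the other 4 members, but the distance grows with a gene's spread over the arrays. The Pearson correlations of Ccn3 with Igfbp2, Aqp1 and Igfbp3 were 0.984, 0.995 and 0.992. Those of the other 4 members with their neighbours were 0.986 to 0.9998.

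**Figure D4:**
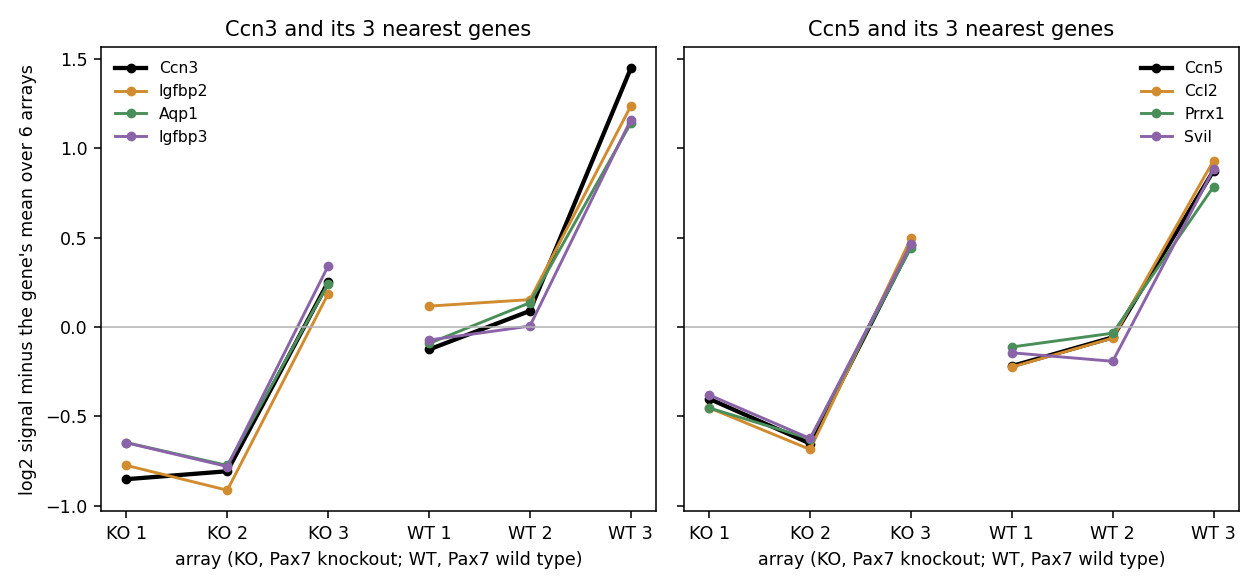
Log2 signal minus the gene's mean over the 6 arrays, for Ccn3 (left) and Ccn5 (right) with their 3 nearest genes. Knockout (KO) arrays 1 to 3 stand left of wild type (WT) arrays 1 to 3, and each line joins the arrays of 1 genotype. In both panels the replicate 3 array is the highest of its genotype and the knockout array lies below the wild type array of equal number.

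Markers were listed for fibroblasts, neural cells, pluripotent cells, endothelium, macrophages, epithelium, cartilage, bone, skeletal muscle, pericytes with smooth muscle, and fat. No member of any of these lists passed the threshold. The fibroblast and neural lists, described here, had the lowest and the highest median of them. Medians of the others lay between -0.12 (bone) and 0.05 (skeletal muscle). Of 8 fibroblast markers, 4 had a lower and 0 a higher signal at an unadjusted limma p under 0.05, beside 9.28% of the genes above background in either direction, and the median was -0.24. Dpt, a dermal matrix protein, stood at -0.95 (SE 0.23), with pair differences of -0.38, -0.61 and -1.86, and at -0.50 without replicate 3. Col3a1 stood at -0.40 (SE 0.10), Col1a1 at -0.06 and Vim at 0.04. The mean log2 signal of the list ran from 8.54 to 9.22 over the knockout arrays and from 8.78 to 9.62 over the wild type arrays. Of 7 measured neural markers, 6 above background, 2 had a higher signal at an unadjusted limma p under 0.05, and the median was 0.20. In either direction that p was reached by 6.73% of all genes and 9.28% of the genes above background. Their mean log2 signal was 5.74 to 5.96 over the knockout arrays and 5.55 to 5.70 over the wild type arrays, which do not overlap. On replicate 3 of the knockout, Tubb3 differed by 2.14 and Sox10 by -2.12 from the mean of replicates 1 and 2. Such shifts offset each other in a mean over genes. The 1.41% of single genes without overlap is therefore not a like share, and none was counted for lists. The mean takes in members below background on some or all arrays. Tubb3, Elavl3, Sox10, Gfap and Dcx had pair differences of both signs. The 2 with an unadjusted limma p under 0.05 were Nes, at 0.45 with pair differences of 0.44, 0.29 and 0.62, and Stmn2, at 0.48 with 0.28, 0.21 and 0.95. Stmn2 was above background on 2 of 6 arrays, those of replicate 3, and stood at 0.25 without them. Dcx was not above background on any array. The part of any of these marker lists in the Ccn3 difference was not tested.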

How the data were processed

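RNA of 6 samples had been labelled with biotin and hybridized to Affymetrix arrays, per the labels. The deposited log2 signals per probe set were made by the authors with Partek and RMA, per the submitters' processing notes. The sources used here name no version, setting or build. The range of the values set the log base. No further normalization was applied, and the number of arrays limits the precision. Of 41345 probe sets, 23521 named 1 gene in the platform annotation, 1814 several, and 16010 were not listed. Taking the brightest probe set of each of the 1082 genes with several left 22180 genes, none filtered. Gene symbols were checked through Entrez numbers against RefSeq (23328 matched, 0 changed).

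Knockout was compared with wild type in limma 3.58.1 (R 4.3.3, lmFit and eBayes, two-sided, Benjamini-Hochberg over all genes) with the replicate number as a block. Deviations from the genotype means correlated at 0.920, 0.895 and 0.973 between arrays numbered 1, 2 and 3, above the bound of 0.1. The replicate 3 divide enters all of these values, so they cannot show whether arrays of number 1 or of number 2 belong together. The labels do not state this pairing. The fit was tested on simulated data. A gene at or below the background level (the 95th percentile of 1394 receptor genes, 1105 olfactory and 289 vomeronasal) in the mean of both genotypes is called not above background. Named are the CCN genes, Pax7, list members past the threshold (or the 2 with the smallest p) and the 3 nearest genes of each member above background; others are named after their values were seen. The members, lists and settings were chosen with earlier results of these data known.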

Additional observations from a re-analysis of the deposited data

How the results depend on the processing

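Over 60 comparisons of a CCN gene with another setting, the direction never changed, and 57 kept their side of the threshold. The 3 exceptions were calls of Ccn3, the only member with a call to lose. Several settings leave the difference of a given probe set the same by design, so its direction could not change there. These are the fits without the block, with 2 batches, with genes above background only, with the intensity trend and with every probe set. Without the replicate block, which is the paired term, Ccn3 stood at -0.94 (limma adjusted p = 1.00). Leaving out each replicate number of both genotypes in turn gave -1.05 to -0.81, past the threshold only without replicate 1; these fits have fewer arrays. With a block of 2 batches, quantile normalization, median centring, genes above background only, an intensity trend with robust variances, or every probe set on its own, Ccn3 passed in each (-1.02 to -0.94). Ccn6 gave no value among genes above background. The counts of called genes moved more: 15 lower and 2 higher became 0 and 0 without the block (13 and 2 at an unadjusted limma p under 0.05), 30 and 4 among genes above background, and 37 and 9 with the intensity trend. With every probe set on its own, 10 were lower and 0 higher (741 higher at an unadjusted limma p under 0.05). Leaving out a replicate number gave 2 to 74 lower and 0 to 24 higher; without replicates 2 and 3, which gave 0 higher, 856 and 517 were higher at an unadjusted limma p under 0.05. The causes were not tested. Signals near background limit Ccn3 and Ccn6.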
